A study of Homo sapiens with 9 samples.

Results

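MYC and the genes of nucleolar ribosome assembly were compared between H2A.X-deficient and control HCT116 cells. Members were chosen by gene symbol: MYC, MYCN and MYCL, the symbols that begin with NOP, RRP, UTP, NOL, NOC or POLR1, and a set of named nucleolar factors such as FBL, NCL and BOP1. Of 86 such symbols in the GRCh38.p14 gene table, 48 had a probe set named on the array, among 14884 genes tested. The other 38, among them MYCN, MYCL, NPM1, DKC1, PES1, NOP56, IMP3, IMP4 and most subunits of RNA polymerase I, could not be followed, since no probe set is named for them here. The symbol rule also took in 6 transcripts with no nucleolar ribosome role known here: NOCT, NOL4, NOL4L, its divergent transcript NOL4L-DT, and the pseudogenes NOC2LP2 and RRP7BP. Counts are therefore given for all 48 and for the remaining 42.

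HCT116 is a human colorectal carcinoma line of epithelial growth. The cells had been infected with lentivirus carrying a hairpin against H2AFX, the gene of the histone variant H2A.X (shH2A.X, 5 arrays), or a scrambled hairpin (shCTRL, 4 arrays), and both groups then grew for 72 h in DMEM with 10% serum. The methods name 1 hairpin clone against H2A.X and describe collection after infection as well as puromycin selection, without saying which applied to the arrays. The arrays of a group are described as independent replicates in a legend, without saying whether they came from separate infections, and the tests rest on the spread between these arrays. Labelled targets were made from 100 ng of total RNA a sample and hybridised to Human Gene 2.0 ST arrays of Affymetrix. The transcript of H2AFX has no probe set named here, so the knockdown could not be checked in these values. A legend reports less H2A.X protein by immunoblot in shH2A.X-infected HCT116 cells, without saying whether these were the cultures of the arrays. Equal amounts of RNA were labelled and the arrays were normalized to each other. A change in total RNA per cell is therefore not visible, and fewer cells that express a gene cannot be told apart from less RNA per cell.

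MYC is a transcription factor that, paired with MAX, binds the E-box CACGTG and raises transcription of growth genes, the ribosome assembly machinery among them. Ribosomes are built in the nucleolus. RNA polymerase I makes the long precursor rRNA, small nucleolar ribonucleoproteins (snoRNPs) modify it, the small-subunit processome folds and cuts its 5′ part, and further assembly factors mature the large subunit. In colorectal carcinoma MYC is a well-known target of Wnt signalling, and nucleolar output follows the growth rate of the cells.

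The array medians lay between 4.54 and 4.577 on the log2 scale, and no pair of arrays held identical values. Across genes, arrays correlated at 0.9938 to 0.9953 within groups and at 0.9851 to 0.986 between groups. In a check of the labelled cell type, the log2 levels of the epithelial markers KRT18 and EPCAM were 11.25 and 10.88 in shCTRL and 11.34 and 10.21 in shH2A.X cells. Of 8 colon epithelial markers measured EPCAM fell, KRT19 and KRT20 rose and 5 did not pass, and their summed linear level was 5422 to 5662 on the shCTRL and 5295 to 5813 on the shH2A.X arrays. Of 3 measured leukocyte markers LYZ and CD68 rose by 2.67 and 0.90 on the log2 scale, and CD14 did not pass the test. Their summed linear level was 117 to 135 on the shCTRL and 284 to 330 on the shH2A.X arrays, PTPRC has no probe set named here, and the part of these markers in the results below was not tested. The 2 fibroblast markers measured summed to 16.4 to 19 and to 14 to 17.8, and the 3 endothelial markers to 40.2 to 49 and to 47.9 to 49.9, with none of these 5 called.

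The promoter letters show where the E-box lies in members that moved together. The RefSeq promoter table (GRCh38.p14) held a window of 300 bases, from 250 before the annotated start, for 38 of the 48 members. MYC, RRP12, BOP1, NOLC1, NOL10, RRP1B, NOP58 and MPHOSPH10 are among the others. The following 7 stretches run 5′ to 3′ on the gene's strand, from 100 bases before the start through 30 bases from the start on, with the E-box CACGTG in capitals. The first 6 are the members with the largest falls whose window held it, and the last is RRP36, the member that rose, whose whole window held no copy. The first 6 were thus chosen by both their fall and the motif.
NOC3L, chr10:94362910-94363039, minus strand: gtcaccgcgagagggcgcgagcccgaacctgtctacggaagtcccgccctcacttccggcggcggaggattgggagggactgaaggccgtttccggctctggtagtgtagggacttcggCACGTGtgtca
NOL6, chr9:33473895-33474024, minus strand: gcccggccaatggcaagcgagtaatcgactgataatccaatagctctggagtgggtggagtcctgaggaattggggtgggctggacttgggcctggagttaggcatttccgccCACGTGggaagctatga
FBL, chr19:39846350-39846479, minus strand: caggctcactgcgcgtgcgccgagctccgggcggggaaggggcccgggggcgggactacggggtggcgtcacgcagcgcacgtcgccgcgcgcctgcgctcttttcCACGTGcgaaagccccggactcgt
UTP25, chr1:209827872-209828001, plus strand: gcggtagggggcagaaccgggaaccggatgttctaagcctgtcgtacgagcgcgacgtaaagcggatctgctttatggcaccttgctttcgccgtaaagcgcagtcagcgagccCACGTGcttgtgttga
NOP10, chr15:34343107-34343236, minus strand: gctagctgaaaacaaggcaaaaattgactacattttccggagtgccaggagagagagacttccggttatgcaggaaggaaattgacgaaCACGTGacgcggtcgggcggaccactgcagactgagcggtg
WDR43, chr2:28894567-28894696, plus strand: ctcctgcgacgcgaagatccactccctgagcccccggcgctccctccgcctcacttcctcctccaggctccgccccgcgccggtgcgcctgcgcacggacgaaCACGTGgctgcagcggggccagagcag
RRP36, chr6:43021523-43021652, plus strand: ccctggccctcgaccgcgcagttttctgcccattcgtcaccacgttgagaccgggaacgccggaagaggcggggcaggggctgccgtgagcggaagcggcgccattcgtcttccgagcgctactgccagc

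The E-box began 19, 13, 6, 14 and 3 bases past the start in NOC3L, NOL6, FBL, UTP25 and WDR43, and NOP10 held copies at −170, outside the stretch shown, and at −11. A copy was present in 11 of the 34 windows of members with a MYC or nucleolar role (32.4%), against 9.02% of 10749 windows of genes tested and 7.43% of all 27305 windows. Of the 13 copies in members 9 lay at or past the start (69.2%), against 10.5% of 1089 copies in genes tested. The E-box is its own reverse complement, and the other motifs were searched on both strands. CACGCG was in 23.5% of the 34 windows and in 15.9% of genes tested, CCGGAAG, a core of ETS factor motifs, in 41.2% and 15%, and GCGCATGC, a core of the NRF1 motif, in 2.94% and 4.55%. Motif matches describe letters, not binding. Members with the E-box included 8 of 11 that fell (median log2 fold change −0.38) and members without it 15 of 23 (median −0.26). BYSL (0.04), NOL8 (−0.12) and UTP18 (0.12) held it without passing the test. NOP16 (−0.63), WDR12 (−0.46) and NHP2 (−0.45) were among the 15 that fell without it. Among all genes tested, 15.7% of the 970 with the E-box and 11.3% of the 9779 without it were called lower.

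The level of MYC fell 3.31-fold in shH2A.X cells. Its log2 values were 9.74, 9.79, 9.81 and 9.81 on the shCTRL arrays and 8.28, 8.07, 8.12, 7.92 and 7.89 on the shH2A.X arrays. Every shH2A.X array lay far below every shCTRL array, and the 5 spread more (SD 0.16) than the 4 (SD 0.03). The limma estimate, −1.73 on the log2 scale (SE 0.08, adjusted p = 5.99e-08), ranked 21 among the falls of all genes tested. A two-sided exact permutation test over the 126 splits of the arrays gave p = 0.00794, the smallest that 4 arrays against 5 allow.

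Most nucleolar genes were lower by smaller amounts than MYC. Of the 48 members 29 fell and 1 rose (limma, adjusted p under 0.05 over all genes), and 18 did not pass, where 10.7% of all genes tested were called lower and 12.2% higher. All 30 called genes were among the 42 with a MYC or nucleolar role, so that 69% of those fell. None of the 6 others was called by limma or by an equal-variance test (2 were lower at an unadjusted p under 0.05), with log2 fold changes from −0.22 for NOL4L-DT to 0.14 for NOL4. Without shH2A.X replicate 4, NOL4L-DT was called lower by limma (−0.29, adjusted p = 0.02). The median log2 fold change was −0.29 over the 42 genes and −0.24 over the 48, against 0.00 over all genes tested. Aside from MYC the falls ran from 1.13-fold to 1.55-fold with a median of 1.31-fold. A fall of at least 1.5-fold was reached by MYC, NOP16, RRP12 and BOP1, 8.33% of the 48 against 1.78% of all genes, and no member rose by as much. In 31 members every shH2A.X array lay below every shCTRL array, and in RRP36 above, where 10.7% and 12.1% of all genes showed such separation.

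**Figure D1:**
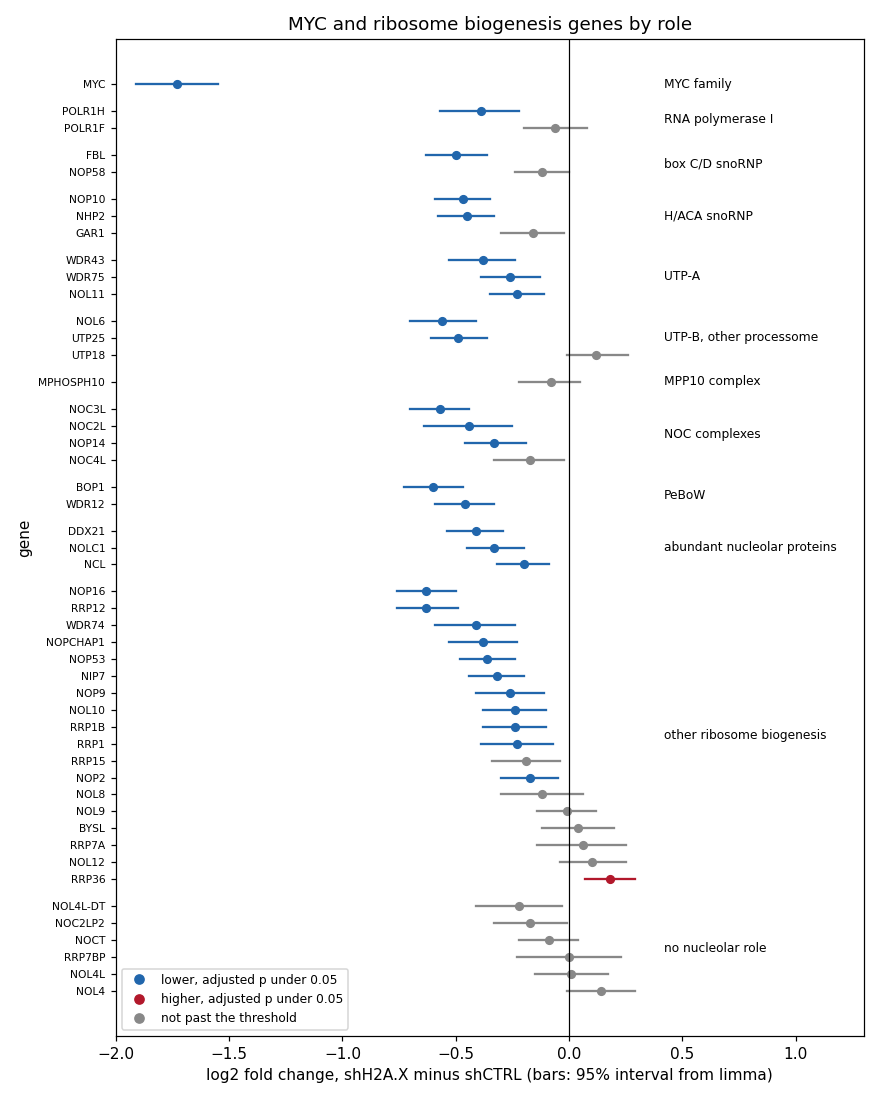
Log2 fold change (shH2A.X minus shCTRL, horizontal axis) of the 48 members, 1 row a gene, grouped by role. Points are estimates and bars 95% intervals from limma with 4 shCTRL and 5 shH2A.X arrays. MYC stands alone at −1.73, the other 28 genes that fell lie between −0.63 and −0.17, and RRP36 at 0.18 is the 1 that rose.

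The shift was present on each array. Measured as the difference from the shCTRL mean, the median over the 42 genes was −0.31, −0.29, −0.25, −0.32 and −0.29 on the shH2A.X arrays 1 to 5. On the shCTRL arrays it was −0.03, 0.01, −0.03 and 0.05. The median over all genes stayed within −0.02 and 0.02 on every array. Between 36 and 38 of the 42 genes lay below the shCTRL mean on each shH2A.X array.

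**Figure D2:**
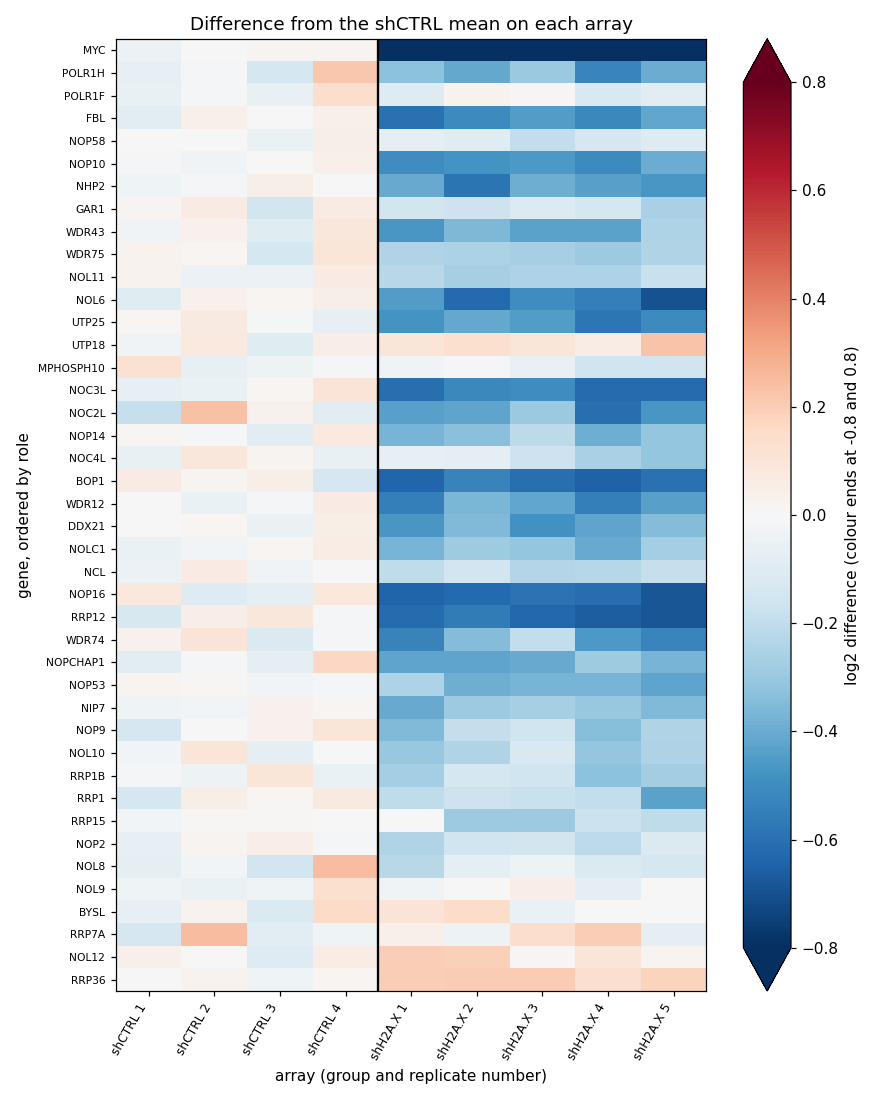
Difference of each of the 42 genes with a MYC or nucleolar role (rows) from its shCTRL mean on each of the 9 arrays (columns), in log2 units as colour, blue for lower. The 5 shH2A.X columns are blue for most rows, while UTP18, NOL12 and RRP36 are on the red side.

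Of the subunits of RNA polymerase I, the enzyme that transcribes rDNA, 2 were measured, and 1 fell. POLR1H, the small subunit related to the RNA-cleaving factor of RNA polymerase II, read 6.87, 6.93, 6.8 and 7.15 on shCTRL and 6.61, 6.53, 6.64, 6.41 and 6.54 on shH2A.X arrays. The groups did not overlap, and it fell by 0.39 (SE 0.08, adjusted p = 0.00404). POLR1F, a subunit of the stalk, had a log2 fold change of −0.06 (95% interval −0.20 to 0.08, adjusted p = 0.606), and its groups overlapped.

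Among snoRNP proteins, which carry the guide RNAs of rRNA modification, FBL, NOP10 and NHP2 fell. So did SNU13, a box C/D core protein outside the symbol rule that is counted below with the processome genes (−0.40, SE 0.06, adjusted p = 0.000974). FBL encodes fibrillarin, the methyltransferase of box C/D snoRNPs. Its values were 10.70, 10.83, 10.79 and 10.83 on shCTRL and 10.19, 10.28, 10.34, 10.27 and 10.37 on shH2A.X arrays, 1.41-fold lower with no overlap (log2 fold change −0.50, SE 0.06, adjusted p = 0.000112). NOP58, its core partner, was separated too, at 11.17 to 11.27 against 11.03 to 11.15, by a small difference that did not pass (−0.12, 95% interval −0.24 to −0.00, adjusted p = 0.142). By the equal-variance test NOP58 did pass (adjusted p = 0.0282), in a range of 0.00888 to 0.433 over the alternatives. NOP10, a small protein of the H/ACA snoRNPs that make pseudouridine, read 10.02, 10.0, 10.03 and 10.07 against 9.53, 9.55, 9.57, 9.52 and 9.63. Each group was tight and lay apart from the other (log2 fold change −0.47, SE 0.05, adjusted p = 6.45e-05). NHP2, another H/ACA core protein, fell by 0.45 (SE 0.06, adjusted p = 0.000188), from 8.54, 8.56, 8.62 and 8.57 to 8.17, 7.99, 8.18, 8.14 and 8.11. GAR1, which joins these and the unmeasured DKC1 in the H/ACA core, gave −0.16 (95% interval −0.30 to −0.02, adjusted p = 0.0909), with 7.11 on shCTRL replicate 3 inside the shH2A.X range of 7.0 to 7.15.

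The small-subunit processome assembles on the growing precursor rRNA, and its UTP-A group binds first and is tied to rDNA transcription. All 3 measured UTP-A genes that the symbol rule took in fell. Log2 fold changes were −0.38 for WDR43 (SE 0.07, adjusted p = 0.00126), −0.26 for WDR75 (SE 0.06, adjusted p = 0.00912) and −0.23 for NOL11 (SE 0.05, adjusted p = 0.00843). No array of either group crossed over in any of them. HEATR1, a UTP-A gene outside the symbol rule that is counted below with the further processome genes, fell by 0.51 (SE 0.06, adjusted p = 9.69e-05). NOL6, a large processome protein, read 7.0, 7.13, 7.11 and 7.14 on shCTRL and 6.65, 6.47, 6.6, 6.55 and 6.4 on shH2A.X arrays. It was 1.47-fold lower (log2 fold change −0.56, SE 0.07, adjusted p = 0.000112). UTP25 fell 1.40-fold, from 7.62, 7.68, 7.59 and 7.54 to 7.13, 7.20, 7.16, 7.03 and 7.10 (adjusted p = 0.000113). UTP18, of the UTP-B group, pointed the opposite way at 0.12 (95% interval −0.01 to 0.26, adjusted p = 0.191). UTP-B genes outside the symbol rule, counted below with the further processome genes, fell. Log2 fold changes were −0.70 for WDR3 (SE 0.05), −0.40 for WDR36 (SE 0.07), −0.31 for TBL3 (SE 0.07) and −0.28 for PWP2 (SE 0.07). Their adjusted p ran from 3.02e-06 to 0.0161, and PWP2 lost the call in 1 of 18 alternatives (0.0683). MPHOSPH10, which carries IMP3 and IMP4 into the processome, gave −0.08 (95% interval −0.22 to 0.05, adjusted p = 0.411).

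Other factors of the small subunit or of rRNA processing were mixed. RRP12, which aids maturation and export of pre-ribosomes, read 8.72, 8.90, 8.94 and 8.83 on shCTRL and 8.23, 8.29, 8.22, 8.19 and 8.16 on shH2A.X arrays, a 1.55-fold fall with no overlap (log2 fold change −0.63, SE 0.06, adjusted p = 2.54e-05). NOP14 fell by 0.33 (SE 0.06, adjusted p = 0.00216), and NOC4L, its partner in yeast, gave −0.17 (95% interval −0.33 to −0.02, adjusted p = 0.097) although its groups did not overlap. NOL10 (−0.24, adjusted p = 0.0163) and NOP9 (−0.26, adjusted p = 0.0169) also fell. The other probe set of NOL10 gave −0.06 (SE 0.09), and its call was lost without shCTRL replicate 2, as that of NOP9 was without shCTRL replicate 4 (adjusted p = 0.056 and 0.051, in ranges of 0.000755 to 0.128 and 0.00485 to 0.0558 over the alternatives). BYSL, the bystin of late small-subunit assembly (0.04, adjusted p = 0.78), RRP7A (0.06, adjusted p = 0.737) and NOL12 (0.10, adjusted p = 0.317) did not pass.

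RRP36, a factor of early cleavage of the precursor rRNA, was the 1 member that rose. It read 9.50, 9.53, 9.47 and 9.52 on shCTRL and 9.70, 9.71, 9.71, 9.63 and 9.68 on shH2A.X arrays. The groups were close but separate, and the log2 fold change was 0.18 (SE 0.05, adjusted p = 0.0221). This call was lost without shCTRL replicate 3 (adjusted p = 0.0586) or shH2A.X replicate 2 (adjusted p = 0.0542), in a range of 0.000771 to 0.115 over the alternatives.

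**Figure D3:**
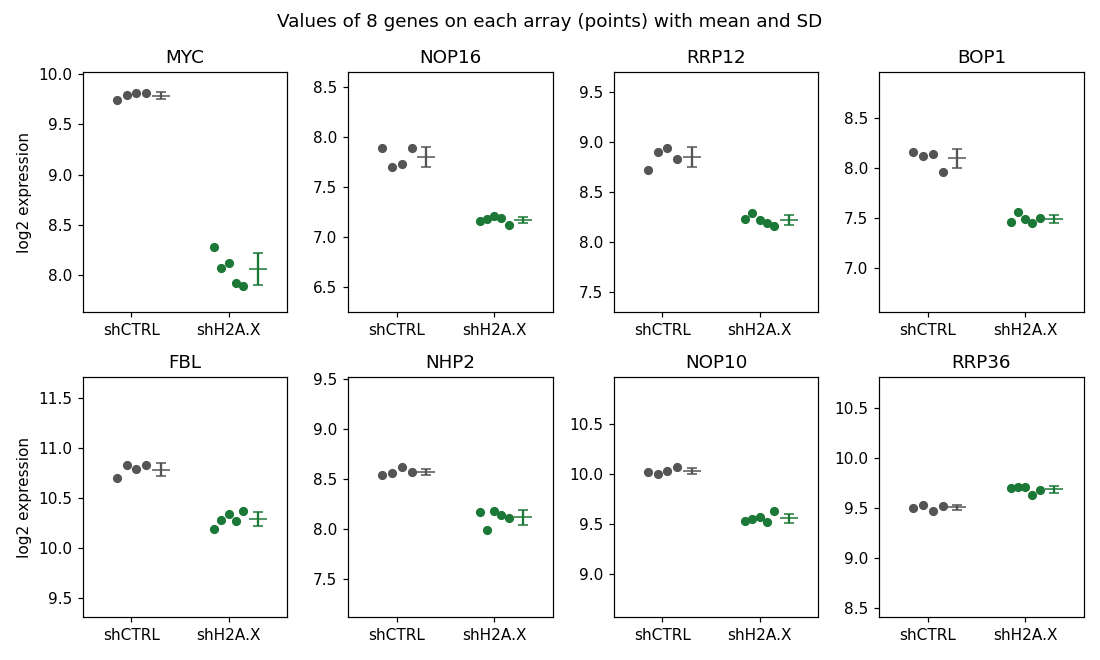
Log2 expression (vertical axes, each spanning the same 2.4 units) of MYC, NOP16, RRP12, BOP1, FBL, NHP2, NOP10 and RRP36 on the 4 shCTRL and 5 shH2A.X arrays. Points are arrays, and the bars beside them mean and SD. The groups do not overlap in any of the 8 genes, with log2 fold changes of −1.73 for MYC and 0.18 for RRP36.

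Factors of the large subunit held several of the larger falls. BOP1 and WDR12 form the PeBoW complex with PES1, which processes the precursor of the large-subunit rRNA. BOP1 read 8.16, 8.12, 8.14 and 7.96 on shCTRL and 7.46, 7.56, 7.49, 7.45 and 7.5 on shH2A.X arrays, 1.52-fold lower (adjusted p = 2.81e-05). A second BOP1 probe set pointed the same way with a smaller fall of 0.33 (SE 0.07). WDR12 fell by 0.46 (SE 0.06, adjusted p = 0.000214), from 8.76 to 8.88 on shCTRL to 8.27 to 8.45 on shH2A.X arrays. NOC3L, of the NOC complexes that escort large-subunit precursors out of the nucleolus in yeast, fell by 0.57 (SE 0.06, adjusted p = 3.99e-05), from 8.60, 8.61, 8.68 and 8.77 to 8.06, 8.15, 8.17, 8.05 and 8.05. Its partner NOC2L fell by 0.44 (SE 0.09, adjusted p = 0.00393), with 6.06 to 6.48 on shCTRL and 5.64 to 5.95 on shH2A.X arrays. The value of NOC2L is uncertain, since its pseudogene NOC2LP2 (−0.17, adjusted p = 0.135) may share probe sequence with it, as RRP7BP may with RRP7A.

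NOP16, a nucleolar protein of large-subunit precursors, fell as much as RRP12, both 1.55-fold. Its values were 7.89, 7.70, 7.73 and 7.89 on shCTRL and 7.16, 7.18, 7.21, 7.19 and 7.12 on shH2A.X arrays. The 5 shH2A.X values lay close together, well below the lowest shCTRL value, and the log2 fold change was −0.63 (SE 0.06, adjusted p = 2.14e-05). WDR74 (−0.41, SE 0.08), NOP53 (−0.36, SE 0.06), which brings the exosome to the precursor rRNA, and NIP7 (−0.32, SE 0.05) fell without overlap. So did RRP1B (−0.24, SE 0.06) and NOPCHAP1, a chaperone of box C/D snoRNP assembly (−0.38, SE 0.07), although the call of RRP1B was lost without shCTRL replicate 3 (adjusted p = 0.0578, in a range of 0.00248 to 0.0709). RRP1 (−0.23, adjusted p = 0.0414) and NOP2, an rRNA methyltransferase (−0.17, adjusted p = 0.0409), were near the threshold. The call of RRP1 was lost without any 1 of 8 arrays, all but shCTRL replicate 1, with adjusted p up to 0.104, and ranged from 0.00958 to 0.136 over the alternatives. That of NOP2 was lost without any 1 of 7, all but shCTRL replicate 1 and shH2A.X replicate 5, with adjusted p up to 0.103, and ranged from 0.00354 to 0.108. RRP15 (−0.19, adjusted p = 0.0641), NOL8 (−0.12, adjusted p = 0.352) and NOL9, a kinase of rRNA processing (−0.01, adjusted p = 0.957), did not pass.

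Transcripts of 3 abundant nucleolar proteins fell as well. NCL, nucleolin, read 7.74, 7.85, 7.76 and 7.79 on shCTRL and 7.58, 7.63, 7.55, 7.56 and 7.60 on shH2A.X arrays. The step was small but without overlap (−0.20, SE 0.05, adjusted p = 0.016), and without shCTRL replicate 2 the call was lost (adjusted p = 0.0557, in a range of 0.00189 to 0.0767 over the alternatives). NOLC1, a phosphoprotein that binds snoRNPs, fell by 0.33 (SE 0.06, adjusted p = 0.00134). DDX21, an RNA helicase of rDNA transcription and rRNA processing, fell by 0.41 (SE 0.06, adjusted p = 0.000263), from 10.92, 10.94, 10.87 and 10.97 to 10.46, 10.57, 10.44, 10.5 and 10.58.

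Many ribosome assembly genes with other symbols fell as well, where 10.7% of all genes were called lower and 12.2% higher. Of 30 further small-subunit processome genes measured, 16 fell and none rose (19 and 0 at an unadjusted p under 0.05, 17 and 0 by the equal-variance test), with a median log2 fold change of −0.19. Log2 fold changes were −0.71 for PDCD11 (SE 0.05), −0.70 for WDR3, of the UTP-B group (SE 0.05), and −0.56 for DIMT1, a methyltransferase of the small-subunit rRNA (SE 0.06). Of 32 further large-subunit assembly genes 17 fell and DDX24 rose by 0.19 (SE 0.06), with a median of −0.20. The call of DDX24 was lost without any 1 of 8 arrays, all but shH2A.X replicate 4. In that list NLE1 (−0.65, SE 0.12) and RSL24D1 (−0.63, SE 0.07) had the largest falls, and RPF1 (−0.39, SE 0.06) and NIFK (−0.39, SE 0.06) came close to each other after them. Of 19 genes of the RNA exosome, which trims rRNA ends, and of snoRNP assembly, 8 fell and none rose (9 and 0 at an unadjusted p under 0.05, and 9 and 0 by the equal-variance test), with a median of −0.11. EXOSC5 had the largest fall there (−0.86, SE 0.08), before RUVBL2 (−0.41, SE 0.06) and EXOSC2 (−0.33, SE 0.05). Of 4 measured genes of RNA polymerase I initiation and rDNA chromatin 1 fell and 3 did not pass, with a median of −0.05. RRN3, the initiation factor that recruits the polymerase, fell by 0.26 (SE 0.08, adjusted p = 0.0317). SIRT7 pointed the opposite way at 0.17 (SE 0.07, adjusted p = 0.0811). At an unadjusted p under 0.05, 1 of the 4 fell and 1 rose. By the equal-variance test none of the 4 was called, and the call of RRN3 was lost without shCTRL replicate 1 or 4, or without shH2A.X replicate 1, 4 or 5 (adjusted p up to 0.159 over the alternatives).

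**Figure D4:**
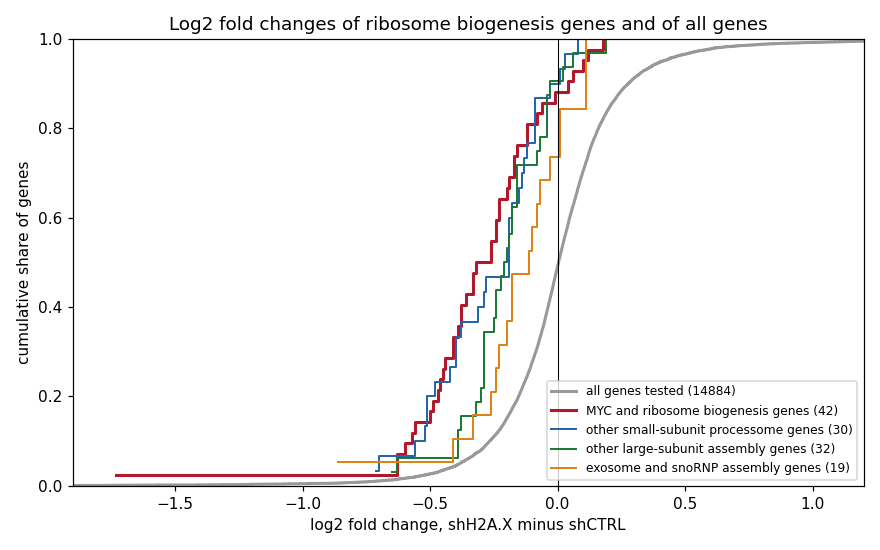
Cumulative share of genes (vertical axis) against log2 fold change (shH2A.X minus shCTRL, horizontal axis) for the 42 members with a MYC or nucleolar role, 3 lists of further assembly genes and all 14884 genes tested. The median of all genes is at 0.00, those of the lists at −0.11 to −0.20 and that of the 42 genes at −0.29.

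Partners and other targets of MYC were read against the same shares of all genes, 10.7% lower and 12.2% higher. Of 10 genes of the MAX network, counted here with MLX, MLXIP and MLXIPL, 4 fell and none rose. The counts were 5 and 0 at an unadjusted p under 0.05, and 3 and 0 by the equal-variance test. MAX itself, the obligate partner of MYC, fell by 0.25 (SE 0.07, adjusted p = 0.0271). Some antagonists that compete for MAX also fell. Log2 fold changes were −0.55 for MXD1 (SE 0.10), −0.53 for MXI1 (SE 0.08) and −0.24 for MNT (SE 0.08, adjusted p = 0.0485). The count that fell was 2 without shCTRL replicate 1, shH2A.X replicate 2 or shH2A.X replicate 5, where MAX and MNT both lost the call. MNT lost the call without any 1 of 6 arrays (adjusted p up to 0.119). MXD3 (−0.06), MXD4 (0.09), MGA (−0.13), MLX (0.01), MLXIP (−0.20) and MLXIPL (−0.28) did not pass. Of 14 measured targets of MYC outside the nucleolus, 5 fell and none rose (7 and 0 at an unadjusted p under 0.05, 6 and 0 by the equal-variance test), with a median of −0.16. They were IMPDH2, of guanine nucleotide synthesis (−0.55, SE 0.06), SHMT2, of serine metabolism (−0.47, SE 0.06), ODC1, the first enzyme of polyamine synthesis (−0.43, SE 0.05), PHB1 (−0.21, SE 0.06) and CDK4 (−0.18, SE 0.05). The count was 3, with PHB1 and CDK4 lost, when replicate 1 or 2 of shCTRL or replicate 4 of shH2A.X was left out. Of 5 measured genes that MYC is known to repress, CCND1, cyclin D1, rose by 0.83 (SE 0.05), NDRG1 fell by 0.33 (SE 0.08), and TXNIP (0.53, SE 0.22, adjusted p = 0.12), NDRG2 (0.03) and DDIT3 (−0.01) did not pass.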

How the data were processed

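RNA of 4 shCTRL and 5 shH2A.X samples was measured, 1 array each, and groups and replicate numbers came from the labels. The methods give 5 arrays for each group, and 4 shCTRL arrays were analysed here. The deposited values are log2 expression, 1 per probe set and array, for 53617 probe sets. The authors used Affymetrix Expression Console for CHP files and Partek 6.6 for normalization, and neither the background correction nor the normalization method is stated in the sources. With no detection calls, whether dim genes were above background is unknown, and the number of arrays limits the precision (median SD within groups 0.127).

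Of the probe sets, 16098 carried 1 gene symbol and 37519 no name. Where a gene had several, the set of highest mean stood for it, and levels were not compared between probe sets. The 14884 genes were fitted together with limma 3.58.1 (R 4.3.3), p-values were adjusted over all of them by the Benjamini-Hochberg method, the threshold was 0.05, and no filter on dim genes was set. Tested on simulated data for 14884 genes, the fit found 85% of 100 genes altered 1.5-fold and 98% of 100 genes altered 2-fold, and 8 of its 191 calls were false. Smaller changes were not simulated, while the called falls of members other than MYC had a median of 1.31-fold. A far larger share of genes was called in the data (22.9%), so these rates do not carry over to them. Named genes are all members of the MYC family, RNA polymerase I, snoRNP, UTP-A, MPP10, NOC, PeBoW and abundant nucleolar groups, the 8 largest non-overlapping falls and rises, members with no nucleolar role or with discordant probe sets, and up to 3 falls and rises per list. The other members, the second BOP1 probe set, NIFK, MNT, PHB1, CDK4, TXNIP, NDRG2 and DDIT3 are named to account for every count or a near tie. So are SIRT7 and the uncalled genes of the MAX network. HEATR1, SNU13, WDR36, TBL3 and PWP2 are named as measured parts of the UTP-A, box C/D and UTP-B groups that the symbol rule left out. Members and lists were chosen with earlier results of these data known. Alternatives were other normalizations, a filter on dim genes, other tests, the replicate number as a block, other treatments of probe sets, and leaving out each array. Every array column was used.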

Additional observations from a re-analysis of the deposited data

Results flagged for a closer look

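Each member was checked in each group for 1 array far from the rest, 96 checks in all, of which chance flags about 1 in 20. There were 2 such arrays. For NOL9, shCTRL replicate 4 read 9.23 against 9.05 to 9.07 on the other 3. For RRP1, shH2A.X replicate 5 read 8.01 against 8.23 to 8.27 on the other 4, and without that array the fall of RRP1 was 0.18 with an adjusted p of 0.0746 (limma).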

How the results depend on the processing

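The fall of MYC kept its direction and its call under all 18 alternatives, between −1.79 and −1.69. Of 30 called members 22 kept the call throughout, and NCL, NOL10, NOP2, NOP9, RRP1, RRP1B, RRP36 and WDR75 lost it in at least 1. WDR75 lost it only with the replicate number as a block (adjusted p = 0.0546). NOP58, RRP15, GAR1, NOC4L and NOL4L-DT, uncalled in the main fit, passed as lower in at least 1. NOP58 passed by the equal-variance test (adjusted p = 0.0282). With a mean-variance trend in limma NOP58, RRP15 and NOC4L passed (0.00888, 0.0297 and 0.0491). RRP15 also passed with the filter on dim genes (0.0381) and without shH2A.X replicate 1 (0.0158). GAR1 passed without shCTRL replicate 3 (0.0321) and NOL4L-DT without shH2A.X replicate 4 (0.02). The number of members that fell was 22 to 32 over all alternatives, against 29, and 25 to 29 without 1 array. It was 22 with the replicate number as a block (without shH2A.X replicate 5), and then 0 rose. No pairing by number was seen: deviations of same-numbered arrays correlated at −0.086 to 0.024, and 0 of 4 shCTRL arrays matched their own number best. Whether same-numbered arrays shared a culture is not stated, and these values cannot decide it. With all probe sets as the unit of adjustment 23 fell and 0 rose. Without 1 array 0 to 1 rose, and 4 to 5 fell at least 1.5-fold. The median of members was −0.26 to −0.23 without 1 array, and −0.29 without the 6 with no nucleolar role. With the filter on dim genes 30 of 47 members fell, where 16.3% of 10575 genes did, and 1 gene of polymerase I initiation rose. Without 1 array the fallen genes numbered 2 to 4 in the MAX network, 3 to 5 among MYC targets, 0 to 1 in polymerase I initiation, 14 to 16 in the small-subunit, 13 to 16 in the large-subunit (where 0 to 1 rose) and 6 to 8 in the exosome list. Uncalled members near 0 changed sign: RRP7BP with array weights (−0.005) and the block (−0.02), NOL4L with the block (−0.003), and without 1 array RRP7BP, NOL4L, NOL9 and BYSL, as low as −0.08, −0.02, −0.02 and −0.001 and as high as 0.08, 0.07, 0.04 and 0.09. The cause was not tested.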
